A study of Saccharomyces cerevisiae with 12 samples.

Results

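The 10 genes described here govern how budding yeast (Saccharomyces cerevisiae) takes up short peptides and how it senses the amino acids that control this uptake. They are PTR2 (YKR093W), the main importer of di- and tripeptides; the further transporters OPT1 (YJL212C), OPT2 (YPR194C) and DAL5 (YJR152W); the aminopeptidase gene AAP1 (YHR047C); CUP9 (YPL177C), which encodes the repressor of PTR2, and UBR1 (YGR184C), which encodes the ubiquitin ligase for that repressor; and SSY1 (YDR160W), PTR3 (YFR029W) and STP1 (YDR463W), genes of the amino acid sensor at the plasma membrane. Each gene was found through its systematic name in the array annotation, and each had a single probe set that targets 1 transcript, so all 10 of the 5581 genes tested were measured. PTR2 and AAP1 were taken as chosen by their rise in euc1-K231R, though the threshold was not stated. For the 10 genes the values, errors and intervals of that contrast are therefore a description, given without p-values. The other 8 genes were chosen by their function around those genes.

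Transcript levels came from 12 Affymetrix GeneChip Yeast Genome 2.0 arrays in 4 groups of 3 biological replicates. In experiment A, strain MJK448, which lacks EUC1 (ymr111c/euc1∆), was compared with wild type (strain Y0003). In experiment B, strain MJK612, which carries ymr111c/euc1-K231R, was compared with further wild-type arrays of Y0003. Euc1 marks ub-hotspots, sites on chromatin where ubiquitin accumulates, and in euc1-K231R a lysine of Euc1 that receives SUMO is exchanged for arginine. Each mutant is a single strain, how many clones its 3 arrays stand for was not stated, and the study describes the K231R allele as carrying a URA3 marker, so that effects of the allele and of the marker cannot be told apart. All cultures grew at 30°C in YP medium, which is rich in peptides, with 2% glucose, and were harvested while growing exponentially (OD600 of 0.7 to 1).

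Yeast imports peptides of a few residues, splits them in the cell and uses the amino acids. In the known circuit, Cup9 keeps PTR2 off, and Ubr1 marks Cup9 for the proteasome. Dipeptides with suitable first residues bind Ubr1 and speed this up, so that imported peptides raise the expression of their own importer. A parallel route starts outside the cell: the sensor Ssy1, with Ptr3 and the protease Ssy5, responds to amino acids by clipping the transcription factors Stp1 and Stp2, which then enter the nucleus and switch on PTR2 and several amino acid permease genes. Both routes act mainly through protein cleavage or turnover, which arrays do not measure.

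The targeted gene was read first. EUC1 (YMR111C) was measured at 9.02, 9.15 and 9.14 on the wild-type arrays of experiment A and at 3.72, 3.88 and 3.64 on the euc1∆ arrays. The arrays also carry probe sets for S. pombe, which have no target in the samples, and 5.30, the value that 95% of them stay under, serves here as the background level. All 3 euc1∆ arrays were under it. In experiment B EUC1 lay between 9.09 and 9.25 in wild type and between 8.12 and 8.19 in euc1-K231R, a log2 difference of -1.02. EUC1 was thus called lower in euc1-K231R (0.49-fold; limma, adjusted p = 1.8e-04). An array cannot show the K231R exchange itself. URA3 was at 8.57 to 8.73 and at 11.4 to 11.5. All levels are RMA values on the log2 scale, and experiments A and B were normalised apart, so levels are compared within an experiment only. The median level of all genes lay between 10.4 and 10.6 on the 12 arrays, and none of the 10 genes fell below the background level on any array. Of 14 marker genes of sporulating cells, 0 were called in euc1∆ and 2 fell in euc1-K231R (SPS22 and HOP1). The shares called over all genes, in the same order, were 0.125% and 0.896%. SPS22 was at 5.03, 5.18 and 5.31 in euc1-K231R, with 2 of these arrays under the background level. In that mutant 6 of the 14 genes had positive and 8 negative differences (-0.84 to 0.30). The mean level over the list in experiment B was 6.80 to 6.97 in wild type and 6.72 to 6.81 in the mutant. Mating type a markers (6 genes) had mean levels of 11.8 to 12.3 on the arrays. Of the 4 mating type alpha markers, whose mean levels were 6.65 to 7.02, MF(ALPHA)1 lay below the background level in experiment A. By its mean MF(ALPHA)1 also lay below that level in experiment B. SAG1 and STE3 lay above it on all arrays, as did MF(ALPHA)2 on those of experiment B. No mating-type marker was called in either mutant. The part of any of these in the results below was not tested.

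PTR2, which encodes the proton-coupled peptide importer, was the member with the largest difference. In experiment B its level was 11.35, 11.70 and 11.35 on the wild-type arrays and 12.69, 12.57 and 12.62 on the euc1-K231R arrays. The lowest mutant array lay well above the highest wild-type array, and wild-type replicate 2 stood above the other two of its group. The mean went from 11.46 ± 0.20 to 12.63 ± 0.06 (SD, n = 3), a log2 difference of 1.16 ± 0.10 (SE) or 2.24-fold. Only URA3 had a larger positive difference among the 5581 genes, so PTR2 ranked 2 of them. PTR2 was taken as chosen by this rise, so nothing is read from its rank. More cells that express a gene and more RNA per cell cannot be told apart in such bulk samples. The wild-type SD of PTR2 in experiment B exceeded that of 97.2% of genes, while its SD in euc1-K231R (0.06) was near the median of all genes (0.07). With wild-type replicate 2 left out the log2 difference was 1.28, and over all fits that left out 1 array it stayed between 1.10 and 1.28.

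In experiment A PTR2 was at 11.80, 11.88 and 11.90 in wild type and at 11.55, 11.65 and 11.67 in euc1∆. All 3 mutant arrays lay below all 3 wild-type arrays, the opposite side from euc1-K231R. Wild type averaged 11.86 ± 0.05 and euc1∆ 11.63 ± 0.06 (SD, n = 3), and the log2 fold change was -0.24 ± 0.05 (SE, 95% interval -0.35 to -0.13). This did not pass the threshold after adjustment over all genes (limma, adjusted p = 0.203), and the adjusted p lay between 0.086 and 0.489 over 13 alternative settings, in each of which the value was negative (-0.27 to -0.20). The groups of 1009 genes did not overlap in this comparison (18.1%). The difference between the responses to the 2 mutants was not tested, since the values of euc1-K231R chose the gene.

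**Figure D1:**
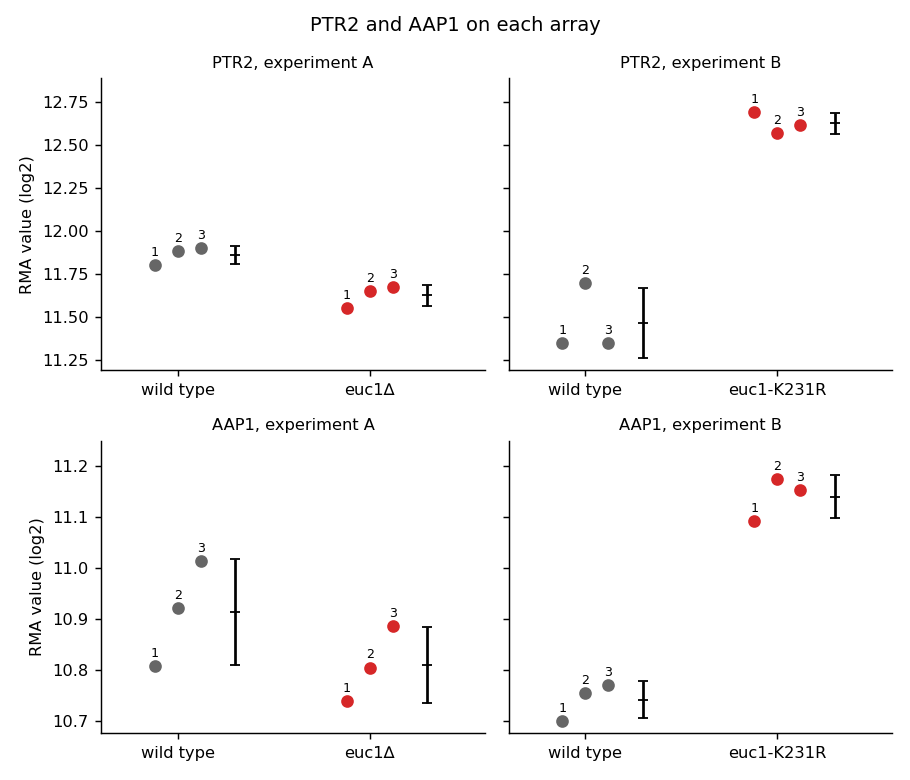
RMA values (log2, y axis) of PTR2 (top) and AAP1 (bottom) on every array, with wild type in grey, the mutant in red and replicate numbers above the points, and bars giving the mean ± SD of 3 arrays beside each group. PTR2 lay at 11.55 to 11.67 in euc1∆, below its wild type, and at 12.57 to 12.69 in euc1-K231R, above its wild type, whereas AAP1 was apart from wild type only in experiment B.

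AAP1 encodes a zinc-dependent aminopeptidase of the cytosol, which removes residues from the amino end of peptides. In experiment B it was measured at 10.70, 10.75 and 10.77 in wild type and at 11.09, 11.17 and 11.15 in euc1-K231R. The groups did not overlap and each was tight, with SDs of 0.04. The log2 difference was 0.40 ± 0.04 (SE), or 1.32-fold, and AAP1 ranked 10 among all genes by the size of its rise. Nothing is read from that rank, since AAP1 was taken as chosen by the same rise. In experiment A wild type gave 10.81, 10.92 and 11.01, and euc1∆ gave 10.74, 10.81 and 10.89. The groups overlapped, and the fold change of -0.10 ± 0.06 (SE, 95% interval -0.26 to 0.05) was not past the threshold (limma, adjusted p = 0.537).

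PTR2 and AAP1 were among the genes called higher in euc1-K231R (limma, adjusted p under 0.05). They were taken as chosen by this rise, so their call is no test of them. The threshold by which they were chosen was not stated. The other 8 members were not among the called genes. Over all genes 50 of 5581 were called there (0.896%), 10 of them higher (0.179%; 25 of 69 after quantile normalisation), and 1080 had an unadjusted p under 0.05 (19.4%). Since this contrast chose PTR2 and AAP1, nothing is read from the count of 2. AAP1 would not have been among them without wild-type replicate 1 or without mutant replicate 2, where its log2 difference was 0.38 in each case. The called rises nearest the threshold were AIF1 (0.29) and YLR297W (0.26), and just outside it lay YIR018C-A (0.39) and YHB1 (0.27). Groups of wild-type and euc1-K231R arrays did not overlap for 2 of the 10 members and for 25.8% of all genes. In euc1∆ 0 of 10 members were called, 2 (PTR2 and STP1) had an unadjusted p under 0.05, and 2 had groups that did not overlap. Over all genes 0.125% were called in euc1∆, 12.4% had an unadjusted p under 0.05 and 18.1% had groups that did not overlap. The median log2 fold change of the 10 genes was -0.05 in euc1∆ (all genes 0.00) and 0.01 in euc1-K231R (all genes 0.00).

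**Figure D2:**
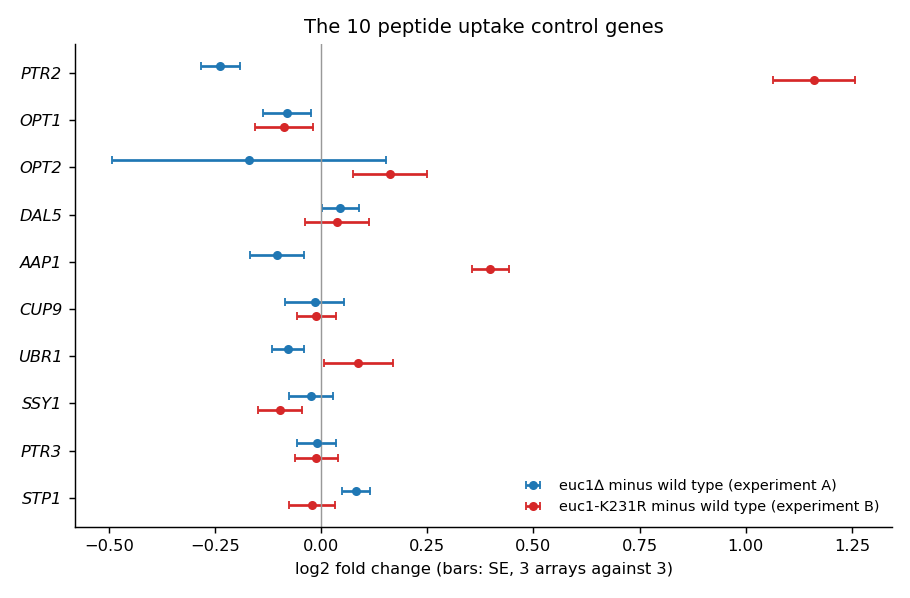
Log2 fold change of the 10 genes (x axis; mutant minus wild type of the same experiment, bars SE, 3 arrays against 3) in euc1∆ (blue) and euc1-K231R (red). In euc1-K231R PTR2 stood at 1.16 and AAP1 at 0.40, while the other 8 genes lay between -0.10 and 0.16. In euc1∆ all 10 lay between -0.24 and 0.08.

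None of the other transporter genes was called in either mutant. OPT1 encodes a proton-coupled transporter of glutathione and oligopeptides. In experiment B it was at 11.40, 11.52 and 11.38 in wild type and at 11.46, 11.23 and 11.34 in euc1-K231R, a difference of -0.09 ± 0.07 (SE, 95% interval -0.25 to 0.07) with overlapping groups. In euc1∆ its value was -0.08 ± 0.06 (SE, limma, adjusted p = 0.581). DAL5, a permease for allantoate and ureidosuccinate that also carries dipeptides, was at 8.99, 8.81 and 9.09 in wild type and at 9.07, 8.99 and 8.93 in euc1-K231R. Its differences were 0.04 in euc1-K231R (95% interval -0.14 to 0.21) and 0.05 in euc1∆ (-0.06 to 0.15; limma, adjusted p = 0.692), and the groups overlapped in both.

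OPT2 encodes a member of the same transporter family as OPT1 and had the widest spread of the 10 genes in euc1∆. In experiment B it was at 8.07, 8.17 and 7.91 in wild type and at 8.27, 8.31 and 8.06 in euc1-K231R, a difference of 0.16 ± 0.09 (SE). In experiment A wild type gave 7.27, 7.46 and 7.73, and euc1∆ gave 7.82, 7.59 and 6.53. Replicate 3 of euc1∆ stood far below the other arrays, and the SD of that group, 0.68, exceeded that of 99.9% of genes. The log2 fold change was -0.17 with all arrays (95% interval -0.94 to 0.60; limma, adjusted p = 0.857) and 0.22 without that replicate (adjusted p = 0.412). Of the 10 genes OPT2 was also the most variable on the wild-type arrays of experiment A, with an SD of 0.23 against a median of 0.05 over all genes.

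CUP9 and UBR1, the repressor gene and the gene of its ubiquitin ligase, had no called change in either mutant. CUP9, which encodes a homeodomain protein, was at 11.57, 11.59 and 11.49 in wild type and at 11.52, 11.59 and 11.50 in euc1-K231R. The difference was -0.01 ± 0.05 (SE, 95% interval -0.12 to 0.10). In euc1∆ it was at 10.95, 11.07 and 10.79, around wild-type values of 10.94, 10.94 and 10.97, and the spread of the mutant arrays (SD 0.14) was larger than that of wild type (SD 0.02). The log2 fold change there was -0.02 ± 0.07 (SE, limma, adjusted p = 0.946). UBR1 was at 11.56, 11.44 and 11.59 in wild type and at 11.45, 11.68 and 11.72 in euc1-K231R, where replicate 1 lay among the wild-type arrays and replicates 2 and 3 above them. Its differences were 0.09 ± 0.08 in euc1-K231R and -0.08 ± 0.04 in euc1∆ (SE; limma, adjusted p = 0.462 in euc1∆). The interval for UBR1 in euc1-K231R ran from -0.10 to 0.28.

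**Figure D3:**
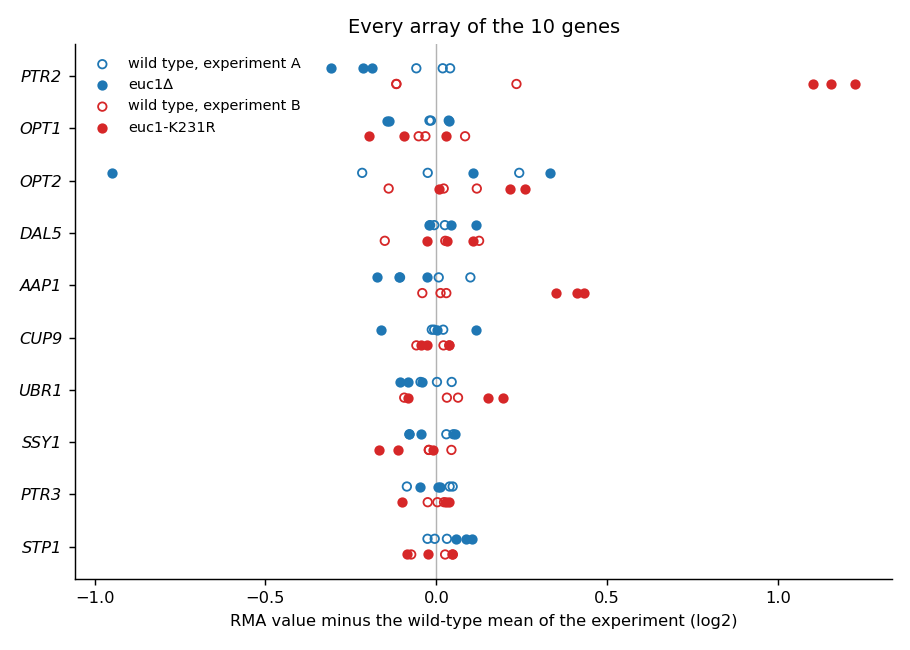
Every array of the 10 genes as its RMA value minus the wild-type mean of its experiment (x axis, log2), with open symbols for wild type and filled symbols for the mutants (blue experiment A, red experiment B). The red filled points of PTR2 and AAP1 stood apart from their wild type, and euc1∆ replicate 3 of OPT2 (6.53) stood far to the left of its group.

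None of the amino acid sensor genes was called. SSY1, which encodes the permease-like receptor, was at 9.22, 9.16 and 9.16 in wild type and at 9.01, 9.07 and 9.17 in euc1-K231R, a difference of -0.10 ± 0.05 (SE) with overlapping groups. In euc1∆ it differed by -0.02 ± 0.05 (SE, limma, adjusted p = 0.874). PTR3, the gene of its cytosolic partner, lay between 8.97 and 9.01 in wild type and was at 9.03, 9.02 and 8.89 in euc1-K231R, and differed by -0.01 ± 0.05 there and by -0.01 ± 0.05 in euc1∆ (SE, limma, adjusted p = 0.945 in euc1∆). STP1, the gene of the latent transcription factor, was at 10.09, 10.14 and 10.11 in wild type and at 10.17, 10.22 and 10.20 in euc1∆. These groups did not overlap, but the change was small (0.08 ± 0.03 SE, 1.06-fold) and not past the threshold (limma, adjusted p = 0.391). In experiment B STP1 overlapped between groups, at 10.54, 10.66 and 10.64 in wild type and at 10.66, 10.53 and 10.59 in euc1-K231R (-0.02 ± 0.05 SE).

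The paralogues of members gave values of their own. APE2, an aminopeptidase gene closely related to AAP1, was at 12.14, 12.19 and 12.22 in wild type and at 12.30, 12.27 and 12.17 in euc1-K231R, a difference of 0.06 ± 0.05 (SE) with overlapping groups. TOS8, the relative of CUP9, differed by 0.07, STP2 by -0.01 and UBR2 by -0.02 in euc1-K231R, none of them called. In experiment A UBR2 was at 9.72, 9.99 and 9.78 with EUC1 and at 9.53, 9.58 and 9.72 without it, a difference of -0.22 ± 0.08 (SE; limma, adjusted p = 0.362).

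Beyond the members, 79 other genes of the same or related pathways were read in 7 lists. These were signalling of the amino acid sensor (10 genes), amino acid permeases (19) and an N-degron list (10). The N-degron list held genes of the pathway of Ubr1 and of other ubiquitin ligases, among them SSM4, UBR2 and MUB1. The further lists were the paralogue and corepressor of Cup9 (3), other peptidases (16), allantoin and nitrogen source genes (16) and glutathione synthesis and turnover (5). All 79 were measured. In euc1∆ none of the 79 was called with limma, and 13 had an unadjusted p under 0.05. The shares over all genes were 0.125% and 12.4%. Without euc1∆ replicate 3, MUP3, a low-affinity methionine permease gene, was called. With all arrays MUP3 was at 8.99, 9.09 and 9.10 in wild type and at 9.49, 9.59 and 9.20 in euc1∆ (0.36 ± 0.10 SE, adjusted p = 0.246). Smaller unadjusted p than that of MUP3 were those of ALP1 (0.28), DUR12 (-0.27) and DAL1 (0.23). Their adjusted p were 0.138, 0.203 and 0.246 (limma).

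In euc1-K231R 2 of the 79 fell and 0 rose, while 18 had an unadjusted p under 0.05. Over all genes 0.896% were called there and 19.4% had an unadjusted p under 0.05. Both called genes of the lists were amino acid permease genes. They moved the other way from PTR2, and of all 50 called genes 40 fell. GAP1 (YKR039W), the general amino acid permease gene that good nitrogen sources repress, was at 9.95, 10.21 and 10.08 in wild type and at 9.56, 9.28 and 9.36 in euc1-K231R. It fell by 0.68 on the log2 scale (0.09 SE; limma, adjusted p = 0.021). AGP1 (YCL025C), a broad-range permease gene that Stp1 and Stp2 are known to activate, was at 12.04, 12.24 and 12.03 in wild type and at 11.74, 11.55 and 11.51 in euc1-K231R. It fell by 0.50 (0.08 SE; limma, adjusted p = 0.048). Neither was called without wild-type replicate 2 (adjusted p = 0.0542 for GAP1 and 0.102 for AGP1) or mutant replicate 2 (0.124 and 0.219), and AGP1 also failed without wild-type replicate 1 (0.159) or 3 (0.0541) or mutant replicate 3 (0.0579). In experiment A the values were -0.04 for GAP1 and 0.08 for AGP1, with overlapping groups (limma, adjusted p = 0.774 and 0.516). The difference between the mutants was not tested.

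The remaining 17 permease genes were not called in euc1-K231R, and the list had a median of -0.07 (all genes 0.00). Of those 17, MMP1 had the smallest p (-0.29 ± 0.09 SE; limma, adjusted p = 0.157). Further known targets of Stp1 and Stp2, named here for their function after their values were seen, stayed near zero: BAP2 (0.02), BAP3 (0.05), GNP1 (-0.04), TAT1 (-0.07) and DIP5 (0.03), each with overlapping groups. Signalling genes lay between -0.10 and 0.19, with GRR1, an F-box protein gene of the sensor pathway, at 0.19 ± 0.06 (SE; limma, adjusted p = 0.162), and SSY5, the gene of the processing protease, at -0.07. DAL81, the gene of a further activator of PTR2, differed by 0.11 ± 0.05 (SE; adjusted p = 0.285). Genes of the N-degron list lay between -0.15 (SSM4) and 0.12. TUP1 and CYC8, the corepressor genes through which Cup9 acts, differed by 0.06 and 0.08.

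Among peptidase genes in euc1-K231R the largest difference was that of DUG1, which encodes a cysteinylglycine dipeptidase. It was at 13.58, 13.63 and 13.58 in wild type and at 13.92, 13.88 and 13.78 in the mutant. The groups did not overlap, but the difference of 0.26 ± 0.05 (SE) missed the threshold (limma, adjusted p = 0.0657). LAP2 differed by 0.20 ± 0.05 (SE; adjusted p = 0.138), and the vacuolar protease gene PEP4 by -0.14. Of the 16 peptidase genes 10 had a positive and 6 a negative difference, with a median of 0.02. In the allantoin and nitrogen list DUR3 (-0.25), DAL4 (-0.27) and MEP3 (-0.16) had the smallest p, with adjusted p of 0.0804, 0.143 and 0.173 (limma), and 11 of 16 genes had negative differences. In the glutathione list GSH2 was at 0.15 (adjusted p = 0.198).

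**Figure D4:**
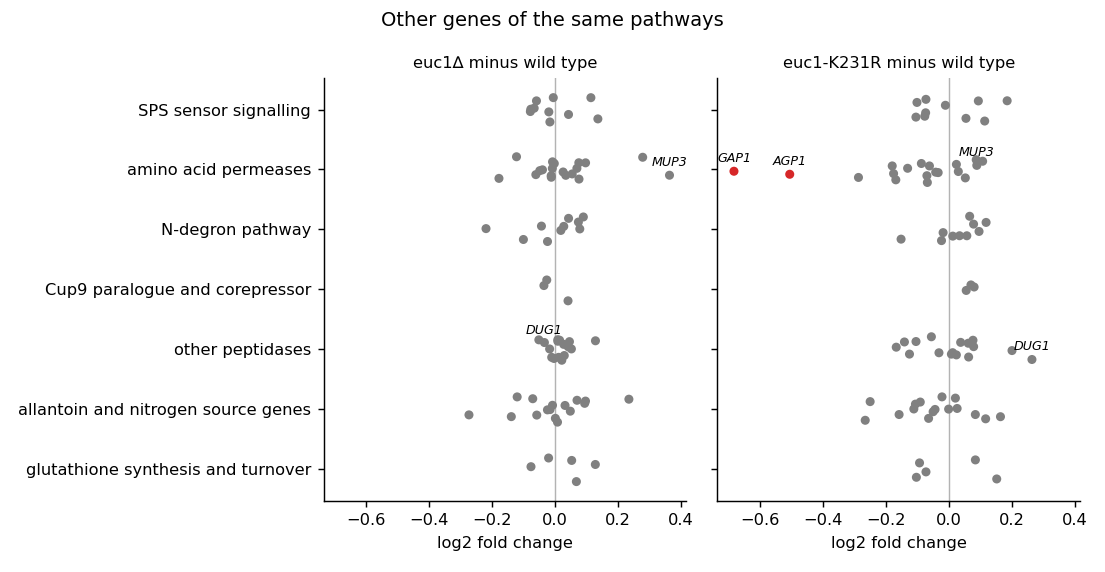
Log2 fold change (x axis, mutant minus wild type) of each of 79 further pathway genes by list (y axis, points spread vertically for legibility) in euc1∆ (left) and euc1-K231R (right), with called genes in red. GAP1 (-0.68) and AGP1 (-0.50) were the called genes, both in euc1-K231R, and DUG1 stood at 0.26 there.

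The genes on either side of the members on the chromosome were also read. Of the 20 adjacent positions 19 held a measured gene. None of the 19 was called in euc1-K231R or in euc1∆ with limma, where 0.896% and 0.125% of all genes were. In the same order 6 and 1 had an unadjusted p under 0.05, against 19.4% and 12.4% of all genes. PTR2 lies on chromosome XI between SRP40, which differed by 0.16 ± 0.06 in euc1-K231R, and RPL40B, which differed by -0.22 ± 0.11 (SE). AAP1 lies on chromosome VIII between INM1 (0.01) and YHK8 (0.01). Over the 19 genes the differences in euc1-K231R ran from -0.22 to 0.48. The highest was that of YJR151W-A beside DAL5 (0.48 ± 0.16 SE, limma, adjusted p = 0.177), with groups that did not overlap and 4 of its 6 arrays below the background level.

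The genes whose pattern was most like that of PTR2 were found by Pearson correlation over the 12 arrays, after the mean of each gene in its experiment was subtracted. The highest r values were those of SDD2 (0.96), URA3 (0.96), DUG1 (0.95), AAP1 (0.93) and EHD3 (0.93). Each of these was higher in euc1-K231R, by 0.17 (EHD3) to 2.79 (URA3). The arrays share their group means, and with those also subtracted the r values were 0.52, 0.60, 0.50, 0.29 and 0.61. For AAP1 the closest genes were MPH1 (0.95), GBP2 (0.94), PTR2 (0.93), GLN4 (0.93) and CCT4 (0.92). Those other than PTR2 had differences in euc1-K231R of 0.11 to 0.12. With the group means also subtracted their r values were 0.66, 0.82, 0.29 (PTR2), 0.75 and 0.43. PTR2 and AAP1 were taken as chosen on the same contrast, so nothing is read from their r. Members other than AAP1 had r values with PTR2 between -0.53 (SSY1) and 0.31 (UBR1), and with the group means subtracted between -0.72 (DAL5) and 0.65 (STP1). These correlations are descriptions over 12 arrays and carry no test.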

How the data were processed

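The authors deposited RMA values on the log2 scale for each array (RMA: background correction, quantile normalisation and probe set summary; submitters' processing notes name RMA and limma, versions not given in the sources used here). RNA was labelled from 300 ng of total RNA. The authors also deposited, per mutant, log2 fold changes and adjusted p-values, which were not used; only the gene names of those tables were. No exact value was shared between arrays of experiments A and B, against 42 to 216 within an experiment, so the experiments were treated as normalised apart. Of 10928 probe sets, 5713 named an S. cerevisiae gene; 132 whose suffix marks several targets were left out, leaving 5581 genes. Symbols and gene order came from an NCBI RefSeq table (assembly R64, 5564 genes matched); the annotation's genome build is not given, so no coordinates are printed. No sequences were used.

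Mutant and wild-type arrays of an experiment, 6 in all, were fitted with limma 3.58.1 in R 4.3.3 (lmFit, eBayes, two-sided), tested on simulated data, with Benjamini-Hochberg adjustment over the 5581 genes and a threshold of 0.05. The number of arrays limits the precision, and p-values measure the spread between these cultures of 1 strain per group. The rule for named genes took EUC1, all members, their paralogues and called genes of each list. It also took up to 3 genes per list with the smallest p, and the 5 genes most like PTR2 and AAP1. Of the genes with the smallest p only a part is named in the text. URA3, the neighbours named, BAP2, BAP3, GNP1, TAT1, DIP5 and SSY5 were added after their values were seen. Members and lists were chosen with earlier results of these data known. Alternatives were quantile normalisation, median centring, a filter at the S. pombe level, a trended and robust prior, a 12-array fit, a replicate block, all S. cerevisiae probe sets, and leaving out each array. Plots came from matplotlib 3.10.9 (Python 3.11.15).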

Additional observations from a re-analysis of the deposited data

Results flagged for a closer look

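PTR2 stood out because its arrays moved to opposite sides of wild type in the 2 mutants: every euc1∆ array lay below every wild-type array of experiment A (-0.24 on the log2 scale) and every euc1-K231R array lay above every wild-type array of experiment B (1.16). The difference between these effects was not tested, and the value in euc1-K231R chose the gene. Groups did not overlap, in either direction, for 18.1% of all genes in euc1∆ and for 25.8% in euc1-K231R. PTR2 was not called in euc1∆ (limma, adjusted p = 0.203). Single arrays were not tested as outliers, since each group holds 3.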

How the results depend on the processing

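With 3 arrays a group, differences of the size seen for most members lie near the spread between arrays. The members called in euc1∆ remained 0 under the 7 alternatives that kept all arrays, and leaving out 1 array gave 0 to 0. In euc1-K231R the counts were 2 and 1 to 2. That contrast, on the same arrays, chose PTR2 and AAP1, so nothing is read from its count. The 2 other pathway genes called in euc1-K231R became 5 in the 12-array fit (AGP1, DUG1, DUR3, GAP1 and LAP2), 4 after median centring, 3 each after quantile normalisation and with the trended prior, and 0 with the replicate block (GAP1 adjusted p = 0.0878, AGP1 0.100; limma); without 1 array they were 0 to 2, and in euc1∆ 0 to 1. The cause was not tested. The replicate numbers did not pair the arrays: same-numbered deviations correlated at -0.22 to 0.30. With the block 1 gene was called in euc1∆ and 27 in euc1-K231R over all genes. In euc1∆ the value of OPT2 turned sign without mutant replicate 3, from -0.17 to 0.22 (range -0.42 to 0.22). Values near zero also turned sign without 1 array in euc1∆. Their ranges were -0.0803 to 0.0590 for CUP9, -0.0635 to 0.0046 for SSY1 and -0.0538 to 0.0132 for PTR3. In euc1-K231R values near zero turned sign for DAL5 (-0.0387 to 0.0992), CUP9 (-0.0408 to 0.0073), PTR3 (-0.0355 to 0.0333) and STP1 (-0.0582 to 0.0109). Over all genes 7 calls in euc1∆ ranged from 1 to 21 and 50 in euc1-K231R from 11 to 124. Over all genes the median in euc1-K231R was -0.01 after median centring and 0.01 after quantile normalisation.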
